A study of Mus musculus with 12 samples.

Results

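The mitotic G2/M genes described here were 42 genes that act between the end of DNA replication and the separation of the daughter cells. They were taken by gene name, a rule that uses no measured value, though the names were chosen with earlier results of these data known. All 42 had a row in the deposited table of 30743 gene symbols. RNA was taken from whole livers of male C57BL/6J fetuses at 15 ± 0.5 dpc. The dams had been fed a control diet (13.5 kcal% fat, 6 livers) or a high-fat diet (HFD; 60 kcal% fat, 6 livers) for 12 to 14 weeks. No transgene or sorted cell enters the design. The measure used here was the authors' average level of each gene over all 12 libraries, in CPM (the reads of a gene scaled to a library of 1000000 reads). It pools both diets and carries no error, so the genes were compared with each other and not between the diets. The level in each single liver was not used here, and an order of levels therefore has no spread beside it. Because whole livers were sequenced, fewer cycling cells and less RNA per cycling cell cannot be told apart.

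Entry into mitosis is driven by cyclin B bound to the kinase Cdk1, after cyclin A has carried the cell through replication and G2. The spindle then attaches to each chromosome at the kinetochore, the spindle checkpoint holds the cell until every chromosome is attached, and the anaphase-promoting complex (APC/C) marks securin and cyclin B for destruction. Most of these genes are transcribed late in the cycle, and their promoters are known for CCAAT boxes, which bind the factor NF-Y, and for the cell cycle genes homology region (CHR), which binds the DREAM and MuvB complexes and, through them, B-Myb and Foxm1. The fetal liver at this age is the main site of blood formation, and many of its erythroid precursors divide.

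Promoter sequence shows the elements that the members share. RefSeq promoters of 300 bases (250 before to 50 after the transcript start, GRCm38.p6) were matched for 34 of the 42 members. The 8 others, named only, were Ccna2, Aurkb, Cdc25c, Spc24, Kif20a, Tpx2, Incenp and Foxm1. The letters searched on both strands were CCAAT for the CCAAT box and TTTGAA or TTCGAA for the CHR. The stretch from 100 bases before to 20 bases after the start held at least 2 CCAAT boxes and a CHR in 9 members. The 2 of these with the lowest levels (Ube2c, the ubiquitin-conjugating enzyme of the APC/C, and Ttk, a checkpoint kinase) and the 2 with the highest levels (Ccnb2, cyclin B2, and Top2a, the topoisomerase that untangles sister chromatids) are shown, because they carry the same letters at opposite ends of the range. The sequences run 5′ to 3′ on the gene's strand, and capitals mark the CCAAT boxes and the CHR, written ATTGG or TTCAAA where the letters lie on the other strand.
Ube2c: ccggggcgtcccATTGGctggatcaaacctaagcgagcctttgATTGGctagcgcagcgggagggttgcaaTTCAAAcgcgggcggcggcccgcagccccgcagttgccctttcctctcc
Ttk: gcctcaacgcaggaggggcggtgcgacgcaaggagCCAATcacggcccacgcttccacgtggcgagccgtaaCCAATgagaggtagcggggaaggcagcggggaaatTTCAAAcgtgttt
Ccnb2: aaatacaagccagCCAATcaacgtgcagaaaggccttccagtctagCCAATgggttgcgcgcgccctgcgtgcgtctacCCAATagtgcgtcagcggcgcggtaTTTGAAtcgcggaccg
Top2a: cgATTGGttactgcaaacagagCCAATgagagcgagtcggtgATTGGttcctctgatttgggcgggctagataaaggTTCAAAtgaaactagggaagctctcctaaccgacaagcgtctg

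On GRCm38.p6 these stretches lay at chr2:164769829-164769948 on the plus strand (Ube2c), chr9:83834589-83834708 on the plus strand (Ttk), chr9:70421535-70421654 on the minus strand (Ccnb2) and chr11:99024170-99024289 on the minus strand (Top2a). Positions were counted from the first transcribed base as 1 and the base before it as -1, at the leftmost base of each match. Within these stretches, Ccnb2 held CCAAT boxes at -87, -54 and -21, which are 33 bases apart, and a CHR at 5. Top2a held them at -98, -78 and -58, 20 bases apart, with a CHR at -23. In Ube2c the boxes lay at -88 and -57 and the CHR at -29. In Ttk they lay at -65 and -28 and the CHR at 8. In all 4 the CHR was the element nearest the 3′ end.

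A CHR was found in 27 of the 34 promoters (79.4%), against 21.7% of all 27025 genes with a promoter in the same table and 15.6% of the 6863 of them above 1 CPM. Within 50 bases of the start, 25 of the 34 members (73.5%) held one, against 6.12% of all genes and 3.99% of those above 1 CPM. A CCAAT box was found in 25 members (73.5%, against 41.1% of all genes), and 17 of the 34 held 2 or more, against 13.3% of all genes. Both elements together were found in 23 members (67.6%, against 9.65%). These are shares of letters in a window and not of bound sites. The E2F letters TTTGGCGC or TTTCGCGC, which belong to genes of the G1/S transition, were found in 1 member (2.94%, against 0.93% of all genes), Cdk1. The GC box letters GGGCGG were found in 28 members (82.4%), against 38.2% of all genes and 66.7% of those above 1 CPM.

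The other cell cycle lists held these letters in other shares, which were not tested against the members. Of 83 other mitotic genes with a promoter, 45 (54.2%) held a CHR and 54 (65.1%) a CCAAT box. Of 31 G1/S and replication genes, 6 (19.4%) held a CHR, 19 (61.3%) a CCAAT box and 9 (29.0%) the E2F letters. A CHR within 50 bases of the start was found in 33 of the 83 (39.8%) and in 2 of the 31 (6.45%).

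**Figure D1:**
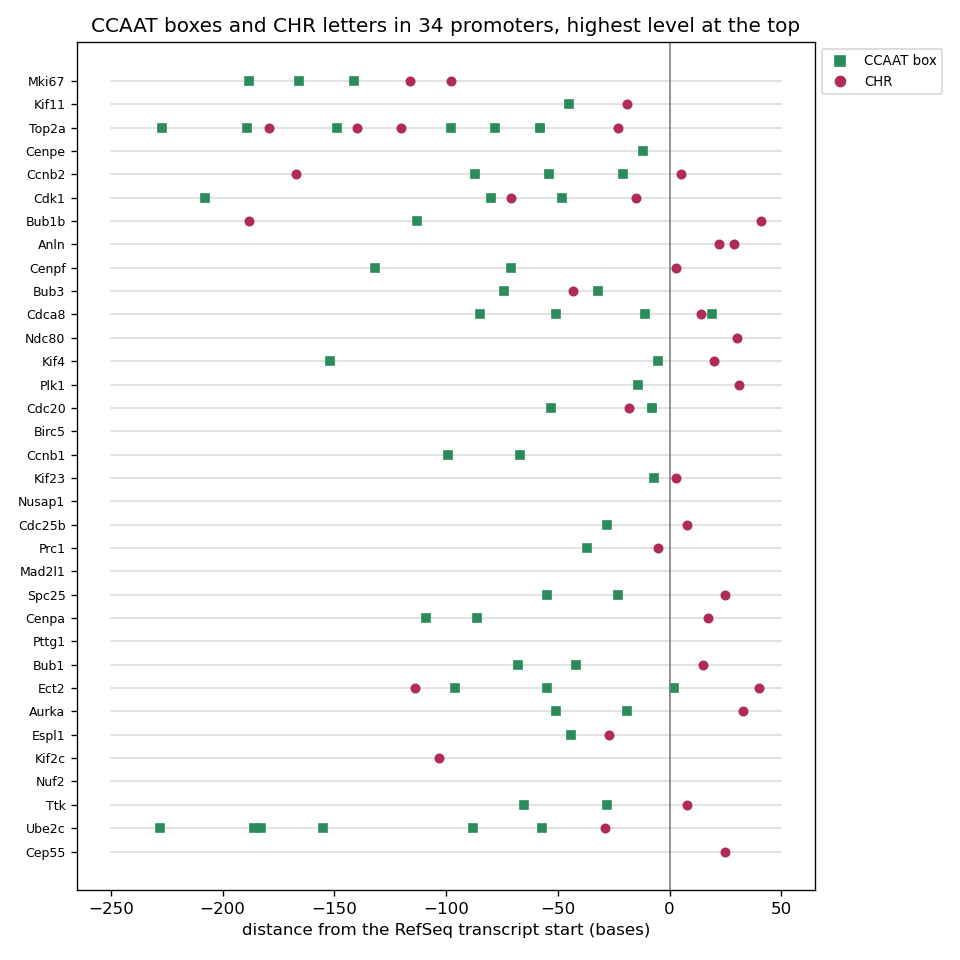
Place of each CCAAT box (green squares) and CHR (red circles) along the promoters of 34 members, in bases from the RefSeq transcript start (x axis), with the genes ordered from the highest level at the top to the lowest at the bottom. For the 4 genes with 2 RefSeq windows 1 window is drawn. A CHR lies within 50 bases of the start in 25 of the 34 genes. Mki67, the highest, has its CHRs further upstream, and Cenpe has none.

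Neither CCAAT nor CHR letters were found in Birc5, Mad2l1, Pttg1, Nuf2 and Nusap1. The 23 members with both elements had a median level of 46.2 CPM and ran from 0.216 (Ube2c) to 5568 CPM (Mki67). The 11 with 1 element or none had a median of 23.6 CPM and ran from 0.178 (Cep55) to 424 CPM (Cenpe). The ranges of both groups overlapped, and 4 of the 23 and 3 of the 11 lay under 1 CPM. This split leaves aside the number of annotated transcripts, with which the listed levels moved (below). A relation between the letters and the levels was not tested.

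The levels themselves ran from the lowest value of the table to 5568 CPM, on a scale that is not corrected for the length of the genes. The median member stood at 29.5 CPM, above 81.0% of the 19652 genes with reads, whose median was 1.15 CPM. Of the 42 members, 16 lay above 100 CPM, 10 between 16 and 64 CPM, none between 8 and 16 CPM, 6 between 1 and 8 CPM and 10 under 1 CPM. Thus 26 members (61.9%) lay above 16 CPM, as did 15.5% of all rows and 24.2% of the rows with reads. The highest, Mki67 (the proliferation marker Ki-67, which coats mitotic chromosomes; chr7:135689784-135716361, minus strand), had the 12th highest level of all 30743 rows and held 48.8% of the members' summed CPM.

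**Figure D2:**
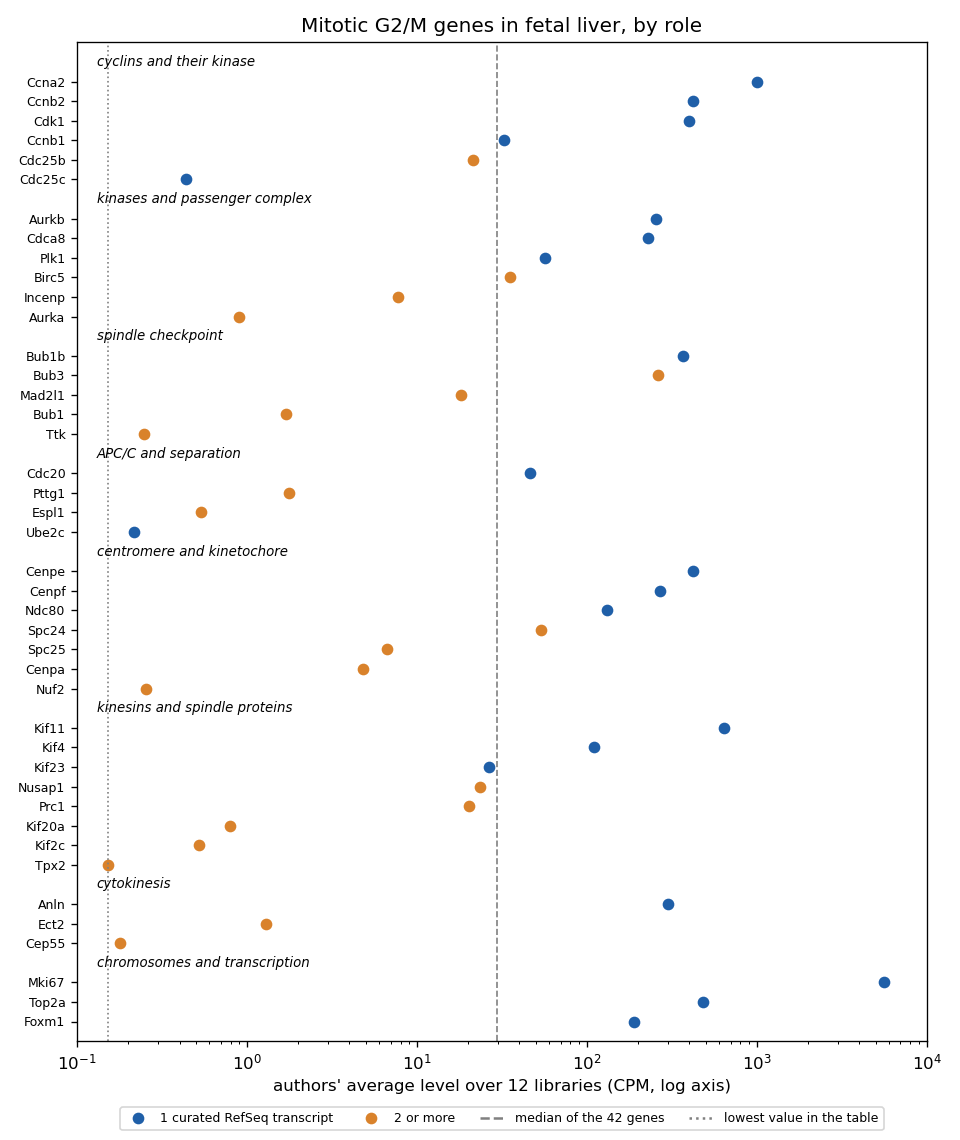
Authors' average level of each of the 42 genes over all 12 libraries, in CPM on a log axis (x axis), with the genes grouped by role (y axis). Points are blue for genes with 1 curated RefSeq transcript and orange for genes with 2 or more, the dashed line is the median of the 42 (29.5 CPM) and the dotted line the lowest value in the table (0.152 CPM). High and low genes occur in every role with more than 3 genes, and 14 of the 16 genes under 8 CPM are orange.

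Low values need care in reading, since genes that every cell uses were among them, such as Gapdh at 5.20 CPM. A gene without reads is listed at 0.152 CPM, since a small prior count was added to every library, and 11091 rows had that value. Under the usual prior of 2 reads a library, the low values of the table fell on whole reads: 99.9% of the 5453 rows with 1 to 20 reads lay within 0.25 of a whole number. The number of reads over all 12 libraries could therefore be read back. A level of 1 CPM stood for about 134 reads over all libraries, and the mean effective library size came to 13129748 reads.

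Among the cyclins and their kinase, 5 of 6 genes lay above 16 CPM. Ccna2 (cyclin A2; chr3:36564865-36572150, minus strand) stood at 1002 CPM, above 99.6% of the genes with reads. Ccnb2 stood at 420 CPM and Cdk1, the kinase that both B cyclins switch on, at 399 CPM. The other B cyclin, Ccnb1, had 32.6 CPM. Cdc25b, the phosphatase that starts to switch on Cdk1 at the centrosome, stood at 21.4 CPM. Its relative Cdc25c, which completes the switch, had 0.439 CPM, or about 45 reads. Longer transcripts collect more reads, so levels of different genes were set against each other per kilobase of the principal transcript in GENCODE M21. On that scale Ccna2 had 338 and Ccnb2 274 CPM per kb, a ratio of 1.23 that became 2.25 per kilobase of coding sequence. Ccnb2 was 20.9-fold above Ccnb1 (13.9-fold per coding kilobase). Each has 1 curated RefSeq transcript, but Ccnb1 has 3 GENCODE basic transcripts and Ccnb2 1. A pseudogene of its name is annotated for each, so this fold compares listed values. The order of Ccnb2 and Cdk1 turned with the length taken: their ratio was 3.00 per kilobase of transcript and 0.784 per coding kilobase.

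The mitotic kinases and the chromosomal passenger complex were uneven. The complex corrects wrong attachments at the centromere and is built from the kinase Aurkb and the proteins Cdca8 (borealin), Birc5 (survivin) and Incenp, which bind each other. Aurkb stood at 256 CPM and Cdca8 at 228 CPM, and per kilobase they were close (131 and 140 CPM per kb). Birc5 had 35.4 CPM, or 3.51-fold less than Aurkb per kilobase. Incenp, the scaffold of the complex, had 7.72 CPM, 54.9-fold less than Aurkb per kilobase and 84.1-fold less per coding kilobase. Incenp and Birc5 have 2 curated RefSeq transcripts each and Aurkb 1. Whether reads shared by several transcripts of a gene were counted is not given in the sources used here, so these folds compare listed values. Plk1, the polo-like kinase of mitotic entry and spindle building, stood at 56.8 CPM. Aurka, the aurora kinase of the spindle poles, stood at 0.890 CPM (about 116 reads).

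In the spindle checkpoint, partners also stood at unequal levels. Bub1b (BubR1, the part that binds and holds Cdc20) stood at 369 CPM and Bub3, its binding partner, at 263 CPM. Per kilobase they had 101 and 119 CPM per kb, and Bub3 was 1.18-fold above Bub1b (2.30-fold per coding kilobase). Bub1, the kinase that brings Bub1b to the kinetochore, had 1.69 CPM. Per kilobase this is 204-fold less than Bub1b, again between a gene with 2 curated transcripts and a gene with 1. Mad2l1 (Mad2, the inhibitor of Cdc20) had 18.1 CPM. Ttk (Mps1, the kinase that starts the signal) had 0.248 CPM, or about 15 reads in all libraries.

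Genes of the APC/C and of chromatid separation were mostly low, with a median of 1.15 CPM and 1 of 4 above 16 CPM. Cdc20, which activates the APC/C in mitosis, stood at 46.2 CPM. Pttg1 (securin, the inhibitor of separase) had 1.76 CPM and Espl1 (separase, the protease that cuts cohesin) 0.538 CPM. Pttg1 has 3 curated RefSeq transcripts and Espl1 2, while Cdc20 has 1. Ube2c had 0.216 CPM, or about 10 reads, the lowest level of any member with 1 curated RefSeq transcript.

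At the centromere and kinetochore, 4 of 7 members lay above 16 CPM. Cenpe, the kinesin that moves chromosomes to the spindle equator, stood at 424 CPM and Cenpf, a large coiled-coil protein of the outer kinetochore, at 267 CPM. Cenpa, the histone that marks the centromere, had 4.84 CPM. The Ndc80 complex, a rod of 1 copy each of Ndc80, Nuf2, Spc24 and Spc25 that grips the microtubule, had its subunits at all heights: Ndc80 130 CPM, Spc24 53.5 CPM, Spc25 6.62 CPM and Nuf2 0.254 CPM, or about 16 reads. The ratio of Ndc80 to Spc24 was 1.51 per kilobase of transcript but 0.763 per coding kilobase, so their order was not settled. Ndc80 was 10.7-fold above Spc25 (5.46-fold per coding kilobase). Ndc80 has 1 curated RefSeq transcript, Spc24 2 and Spc25 4, so these ratios compare listed values. No ratio is given for Nuf2, because most of its value is the prior count.

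Kinesins and spindle proteins ran from the highest motor of the list to a gene listed without reads. Kif11 (Eg5, which pushes the poles apart; chr19:37376403-37421859, plus strand) stood at 641 CPM, above 99.2% of the genes with reads. Kif4, a chromosome arm motor, stood at 109 CPM. Kif23 (Mklp1, a motor of the central spindle) had 26.4 CPM, Nusap1, which bundles spindle microtubules, 23.6 CPM, and Prc1, which bundles the antiparallel microtubules of the midzone, 20.3 CPM. Kif20a (Mklp2, a motor needed for cytokinesis) had 0.794 CPM and Kif2c (MCAK, which takes microtubules apart at the centromere) 0.521 CPM. Tpx2, which activates Aurka on the spindle, was listed at the lowest value of the table, so no fold is given against it.

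Of the cytokinesis genes, Anln (anillin, the scaffold of the contractile ring) stood at 302 CPM. Ect2, the exchange factor that switches on RhoA at the cell equator, lay just above 1 CPM, with about 180 reads in all libraries. Cep55, which recruits the cutting machinery to the midbody, had 0.178 CPM, or about 4 reads. The 3 genes of chromosomes and transcription were all high: Mki67 at 5568 CPM, Top2a at 483 CPM and Foxm1, a transcription factor of the G2/M genes, at 189 CPM. All 3 have 1 curated RefSeq transcript, as does Anln, while Ect2 has 3 and Cep55 4.

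**Figure D3:**
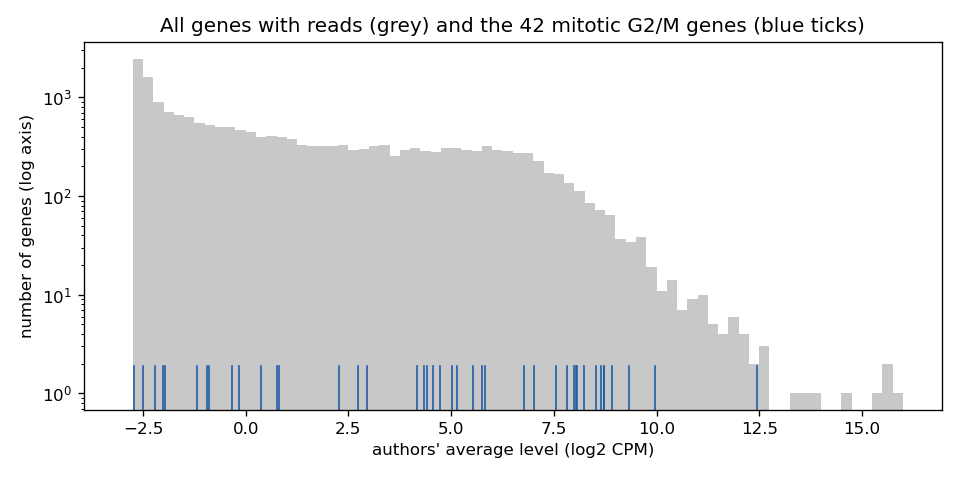
Number of genes (y axis, log axis) at each authors' average level in log2 CPM (x axis) for the 19652 genes with reads, with the 42 mitotic G2/M genes as blue ticks. The ticks run from the left end, where Tpx2 has the lowest value, to Mki67 near the right end, with 26 of them to the right of 4 on the log2 scale.

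Length was set against the levels next. Transcripts ran from 947 bases (Birc5) to 11130 bases (Cenpf), and Spearman's rho between CPM and transcript length over the 42 members was 0.29. Between CPM and CPM per kb it was 0.96, which is high in part by construction, since both hold the same CPM. These and the correlations that follow are across genes of the same libraries, which are not independent replicates, and they are descriptions. Per kilobase the median member had 10.5 CPM per kb, and the 3 highest were Mki67 (553), Ccna2 (338) and Ccnb2 (274). Per kilobase of coding sequence they were Ccna2 (791), Mki67 (584) and Cdk1 (448). The longest, Cenpf, had 267 CPM but 24.0 CPM per kb. For members under 1 CPM both scales include the prior count.

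The members' levels moved with the number of transcripts annotated for each gene. The 21 members with 1 curated RefSeq transcript had a median of 256 CPM, and 19 of them lay above 16 CPM. The 21 members with 2 or more had a median of 1.76 CPM, and 7 lay above 16 CPM. Of the 16 members above 100 CPM, 15 had 1 transcript, and the other was Bub3. The 2 members with 1 transcript and a low level were Ube2c and Cdc25c. Spearman's rho between level and number of curated transcripts over the 42 members was -0.69. With GENCODE basic transcripts it was -0.53, and the 28 members with 2 or more of these had a median of 12.9 CPM. The part of the annotation in the levels was not tested, and the annotation against which the authors counted is not given in the sources used here.

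**Figure D4:**
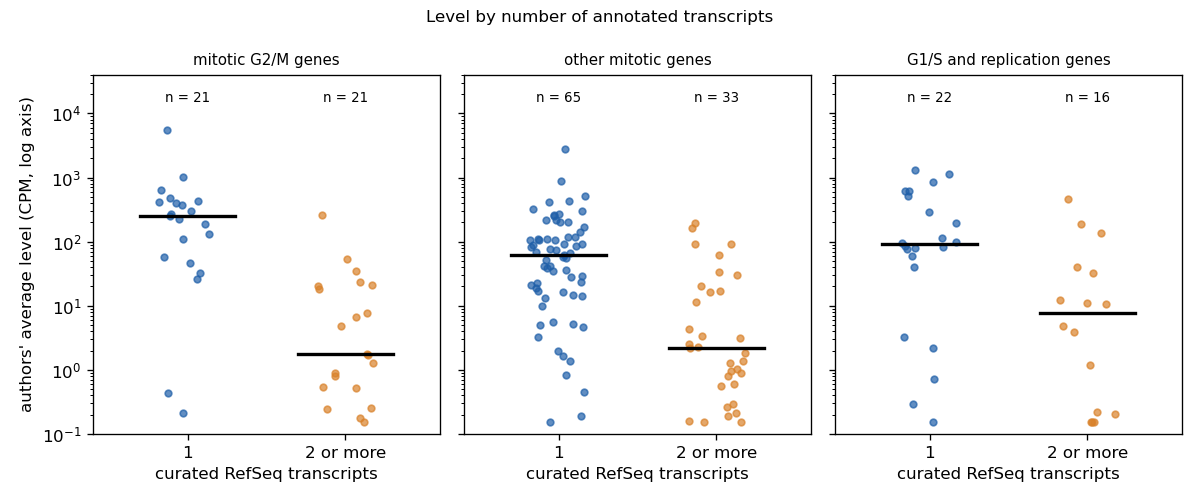
Authors' average level in CPM (y axis, log axis) of genes with 1 or with 2 or more curated RefSeq transcripts (x axis), for the mitotic G2/M genes, the other mitotic genes and the G1/S and replication genes. Each point is 1 gene and each bar a median, which falls from 256 to 1.76 CPM, from 62.7 to 2.20 CPM and from 90.6 to 7.78 CPM in the 3 lists.

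The split was also present in other lists. Of 98 other mitotic genes in the table, 49 of the 65 with 1 curated transcript (75.4%) and 10 of the 33 with 2 or more (30.3%) lay above 16 CPM. Of 38 G1/S and replication genes the counts were 17 of 22 (77.3%) and 5 of 16 (31.2%). Over all rows with a RefSeq match they were 29.0% and 12.9%. Genes that every cell uses were also found at low values. In a choice made after their values were seen, Gapdh, a glycolytic enzyme, had 2 transcripts, Actb, the cytoskeletal actin with 1 transcript, had 2581 CPM and Tbp, a general transcription factor with 1 transcript, had 0.638 CPM. Psma3, a core subunit of the proteasome with 3 transcripts, had 0.197 CPM while the other 13 subunits of its ring complex lay between 25.4 and 319 CPM. The split was not present among these 14 subunits, where the 3 with 2 or more transcripts had a median of 240 CPM and the 11 with 1 a median of 122 CPM. Of 83 ribosomal protein genes, taken by a name pattern, 13 lay under 1 CPM. The pattern also takes in paralogs, and Rpl10l, Rpl22l1 and Rpl3l were among the 13. A low value of a member in this table is therefore a listed value, and says nothing on whether the gene is silent in the liver.

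Overlap with other genes touched 13 members. The exons of 11 members overlapped a gene on the opposite strand in GENCODE M21, such as Tnnc2 at Ube2c, Exosc9 at Ccna2 and Elovl1 at Cdc20, and those of 2 members, Top2a and Foxm1, a gene on the same strand. The library preparation in the methods (random hexamer priming, then a second strand) names no step that keeps the strand. Whether the counting used strand is not given in the sources used here, so reads of such pairs may not be separated. Of the 26 members above 16 CPM 10 had such an overlap, and of the 16 others 3. The share of all genes with such an overlap was not computed. These counts are therefore not read as a trait of the members or of their levels. A pseudogene bearing the member's name was annotated for Ccnb1, Ccnb2 and Kif4, whose values are uncertain to that extent.

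The rest of the cell cycle was set beside the members' median of 29.5 CPM. The 98 other mitotic genes had a median of 28.5 CPM, with 59 (60.2%) above 16 CPM. The highest were Tubb5, a tubulin, at 2767 CPM, Ncapd2, a condensin subunit, at 899 CPM and Lmnb1, a nuclear lamin, at 507 CPM. The lowest, Kif20b, Depdc1a and Anapc4, were listed at the lowest value. The 38 G1/S and replication genes had a median of 49.7 CPM, with 22 (57.9%) above 16 CPM. Rrm2 and Rrm1, the subunits of ribonucleotide reductase, stood at 1304 and 1153 CPM and Mcm2, a subunit of the replicative helicase, at 859 CPM. Mcm5, Orc6, Orc1 and Uhrf1 were listed at the lowest value. Medians and counts of these lists are descriptions, and no test was made between them.

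The tissue was checked by markers of its cell types. The hepatocyte markers Alb and Afp had 63314 and 54525 CPM, and the erythroid marker Slc4a1 12037 CPM. Others of the same cells were low, with the hepatocyte marker Serpina1a at 0.184 CPM (about 5 reads) and the erythroid marker Alas2, an enzyme of heme synthesis, at 0.704 CPM (about 87 reads). Of the 29 markers, 28 were in the table, and 14 lay above 16 CPM, with at least 1 marker of hepatocytes, erythroid cells, macrophages, granulocytes, megakaryocytes, endothelium and mesenchyme among them. None of the 3 markers of stem and progenitor cells did: Kit had 0.159, Gata2 0.803 and Cd34 1.14 CPM, each with 2 curated transcripts. The B lineage markers ran from 0.394 to 5.36 CPM. Other cell types rested on part of their markers. For macrophages only C1qa (82.6 CPM) lay above 16 CPM, with Csf1r at 0.684 and Adgre1 at 0.152 CPM. For endothelium only Kdr (71.0 CPM) did, with Stab2 at 2.24 and Pecam1 at 0.152 CPM. The mesenchymal marker Pdgfrb had 0.152 CPM and the megakaryocyte marker Itga2b 4.99 CPM.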

How the data were processed

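PolyA-selected RNA of 12 whole fetal livers (6 control, 6 HFD) was sequenced. Before deposit the authors removed adapters (cutadapt 1.2.1) and mapped the reads with Subread (version 1.3.6-p1) on mm10, as the methods and the submitters' processing notes state. Gene annotation came from biomaRt, and the authors used edgeR for their contrast between HFD and control. The counting tool, its annotation and strand setting, the edgeR version and the normalization are not given in the sources used here. The deposited table holds, for each gene symbol, the authors' average log2 CPM over all libraries, with a prior count. It also holds the authors' own comparison of the diets (log2 and signed fold changes, p-values and adjusted p-values, with a common and a tagwise dispersion), which was not used. The level in each single liver was not used here, so no test, SD or interval of the levels was computed, and no contrast of the diets.

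The members and lists were chosen with earlier results of these data known. Average log2 CPM (tagwise fit) was turned into CPM. Reads over all libraries were read back with an assumed prior of 2 reads a library. Lengths are those of the APPRIS principal protein-coding transcript of GENCODE M21 (GRCm38, the build of mm10), with ties settled by the longest coding sequence. Transcript numbers are those of curated RefSeq entries. Of the named genes, all 42 members were given by role and of the other cell cycle lists the 3 highest and 3 lowest (Orc1, Orc6, Uhrf1 and Mcm5 share the lowest value); examples among the cell type markers, proteasome, ribosomal and commonly used genes were chosen after their values were seen. Of the cell type markers 1 is not reported here. Of 101 other mitotic genes 98 were in the table, 4 of them under an older symbol. Promoters were credited to RefSeq (GRCm38.p6), and a gene counted as holding a motif if any of its windows did. Motif search was tested on planted letters and the read estimates on simulated counts. Those counts were noise-free, in proportion to library size and built with the same prior. They test the formula only, not the prior or uneven counts. Alternatives were the mean, the coding length, other row sets and thresholds, other motif rules and another transcript count. Scripts ran in Python 3.11.15 with pandas 2.3.3, numpy 2.4.6, matplotlib 3.10.9 and scipy 1.17.1.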

Additional observations from a re-analysis of the deposited data

How the results depend on the processing

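No paired analysis was possible because the level in each single liver was not used here, and no replicate could be left out for the same reason. Of 26 alternatives, 12 of them planned and 14 added after the data were seen, 13 left the value within 1.5 times, 11 moved it further than that or moved a share beyond its 95% binomial interval, and 2 turned the order of a pair. Per coding kilobase the ratio of Ccnb2 to Cdk1 became 0.784 and that of Ndc80 to Spc24 0.763. The median of 29.5 CPM became 272 CPM as a mean, with 48.8% of the sum in Mki67. Per kilobase of coding sequence the median was 27.3 CPM, in place of 10.5 per kilobase of transcript. The median member lay above 63.3% of the rows above 1 CPM and 87.9% of all rows, in place of 81.0% of the rows with reads. Leaving out low rows must lower this share and adding rows without reads must raise it, so both moves follow from the row set. The 95% interval treats a complete set of genes as a sample and is a yardstick only. A CHR was found in 15.6% of the promoters of genes above 1 CPM, in place of 21.7% of all. With GENCODE basic transcripts, the 28 members with 2 or more had a median of 12.9 CPM, in place of 1.76 CPM for the 21 by RefSeq. The number of members above the threshold was 26 at 8 CPM and 21 at 32 CPM. Among the 21 members with 1 curated RefSeq transcript it was 19. That alternative was scored within 1.5 times by count, though the shares were 90.5% of the 21 and 61.9% of the 42. The members with a CHR were 25 with TTTGAA alone and 20 on the sense strand, and those with a CCAAT box 17 on the sense strand. At levels under 1 CPM the value includes the prior count of 0.152 CPM, so ratios between such members are not given.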
